A study of Homo sapiens with 6 samples.

Results

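The transcripts described here are 10 long noncoding RNAs (lncRNAs) known from prostate cancer: NEAT1, MALAT1, H19, MEG3, PCA3, PCAT1, PCGEM1, DRAIC, HOTAIR and GAS5. They were found by gene name in the deposited expression table and by the same gene identifier in the count tables. All 10 of 10 were present among 57500 genes, and 9 of 10 held enough reads to be tested, as did 19255 genes in all. PCGEM1 was the member that the filter on low counts removed.

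The cells were 22Rv1, an established human prostate cancer line that expresses the androgen receptor. One group was the unmodified line, with the genotype label "Wilde Type" (called parental here), and the other was 22Rv1 cells with the label "Liver metastase drived" (called liver-derived here). Each group held 3 libraries, no treatment was named for either group, and both were grown in the same serum-supplemented RPMI medium. The labels name no host animal, no number of derivations and no separate cultures, so the p-values below weigh the difference between groups only by the scatter of these libraries, which may be technical. Because the liver-derived cells may come from a single derivation, what the liver contributed and what else set these populations apart cannot be told apart.

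An lncRNA is an RNA without a known protein product that acts as RNA, or whose transcription itself acts on nearby genes. MALAT1 and NEAT1 are abundant nuclear RNAs: MALAT1 gathers in nuclear speckles, where splicing factors are stored, and NEAT1 is the scaffold of paraspeckles. H19 and MEG3 come from imprinted loci and are made from the maternal copy. HOTAIR lies among the HOXC genes and is known for binding Polycomb repressive complex 2 (PRC2), and GAS5 carries small nucleolar RNAs (snoRNAs) in its introns. PCA3 is a prostate-specific RNA used as a urine marker, PCGEM1 and PCAT1 are prostate-enriched, and DRAIC was named for its loss in androgen-independent cells.

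In the liver-derived cells, MALAT1 and GAS5 rose and H19, PCA3 and HOTAIR fell. H19 was 3.67-fold, PCA3 3.55-fold and HOTAIR 1.93-fold lower, MALAT1 was 1.80-fold higher and GAS5 1.23-fold higher. NEAT1, MEG3, PCAT1 and DRAIC did not pass the test. Of 9 tested members 5 passed (edgeR's quasi-likelihood test, p adjusted by Benjamini-Hochberg over all genes tested and under 0.05), 2 upward and 3 downward, where 38.8% of all tested genes passed, 17.5% upward and 21.3% downward. Among the 2913 tested genes with a long noncoding biotype the share was 31.9%, with 15.0% upward and 16.9% downward. The groups did not overlap for 7 of 9 tested members, against 54.0% of all tested genes. With shares this high over all genes, the number of members called is not read as a property of these lncRNAs. With parental replicate 2 left out, which stood apart from its group, 1 member was higher and 4 were lower, and 59.8% of the genes tested passed.

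Library totals ran from 28395265 to 53275252 counts. Parental replicate 2 differed from the other parental libraries far more than those differed from each other (chi-square per degree of freedom of 55.7 and 62.7, against 2.26), while the liver-derived libraries differed by 2.43 to 3.15. Both groups held the prostate markers: all 12 genes of a prostate luminal and 22Rv1 list were tested, 4 rose and 6 fell. Over all tested genes, 17.5% rose and 21.3% fell. KLK2 (-3.18), TMPRSS2 (-2.58) and KLK3 (-2.53), all androgen-regulated, fell on the log2 scale. These were picked from the list by size of change, and the 4 genes that rose are not named, so they do not stand for the list. A list of 15 hepatocyte markers summed to 44.1 to 54.7 CPM (counts scaled to a common library size) in parental and 66.9 to 70.4 CPM in liver-derived libraries, and 5 of the 15 were under 0.1 CPM in every library. Of 5 of these genes tested, 3 rose (ALB 0.46, APOA1 1.78 and APOH 0.97 on the log2 scale) and ASGR1 fell (-3.08); APOA1 and APOH are named with their values known. ALB made up most of that sum in both groups (47.7 and 65.8 CPM), while the fibrinogen genes FGA, FGB and FGG stood at or near 0. Of 15 stromal, endothelial and leukocyte markers, 10 were tested, none rose and COL3A1 (-1.13) and LUM (-4.93), both of fibroblasts, fell; the list summed to 37.1 to 39.2 and 34.7 to 43.6 CPM, with the endothelial CDH5 and the T-cell CD3E at 0. The part of these marker levels in the results was not tested.

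The libraries were selected for poly(A), so the 3′ ends of these RNAs bear on how they were measured. The sequences below are the last 60 bases of the longest annotated transcript of 4 members, and of the short NEAT1 transcript (GENCODE 29, GRCh38, 5′ to 3′ in the direction of transcription); for MALAT1 the A-rich tract upstream of the annotated end is also given. Capitals mark the polyadenylation signal AATAAA and the stretches shared by the MALAT1 tract and the long NEAT1 transcript, a run of 16 bases with a U-rich part and an A-rich ending of 11 bases. In both RNAs the U-rich and A-rich stretches are known to fold into a triple helix that takes the place of a poly(A) tail.
MALAT1 A tract (MALAT1-202, chr11:65506057-65506116, plus strand): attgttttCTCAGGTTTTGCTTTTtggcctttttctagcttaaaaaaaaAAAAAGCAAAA
NEAT1 long transcript (NEAT1-202, chr11:65445481-65445540, plus strand): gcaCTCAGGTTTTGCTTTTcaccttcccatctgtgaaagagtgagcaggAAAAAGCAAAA
NEAT1 short transcript (NEAT1-201, chr11:65426398-65426457, plus strand): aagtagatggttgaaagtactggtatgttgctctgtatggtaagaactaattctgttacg
MALAT1 annotated end (MALAT1-202, chr11:65506410-65506469, plus strand): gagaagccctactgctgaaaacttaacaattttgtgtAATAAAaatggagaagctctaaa
H19 (H19-203, chr11:1995176-1995235, minus strand): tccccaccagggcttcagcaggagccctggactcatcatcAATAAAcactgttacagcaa
HOTAIR (HOTAIR-201, chr12:53962308-53962367, minus strand): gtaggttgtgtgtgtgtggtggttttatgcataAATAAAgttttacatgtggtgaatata

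The MALAT1 tract ends at base 8355 of 8708 in its transcript, and the long NEAT1 transcript ends with the same 11 letters at base 22743. The 11 letters occurred at 2 places in the MALAT1 transcript and at 1 in the long NEAT1 transcript; the run of 16 bases stood before the one shown and not in the 60 bases up to the other. Runs of 10 or more A occurred at 1 place in the MALAT1 transcript (longest 13), at 5 places in the long NEAT1 transcript (longest 22) and at none in the short one. Neither NEAT1 window held a polyadenylation signal (AATAAA, or the variant spelled ATTAAA), and the H19 and HOTAIR windows did. Among the annotated transcripts, 1 of 8 of NEAT1, 8 of 17 of MALAT1, 6 of 12 of H19 and 1 of 5 of HOTAIR held either signal there. The windows shown thus do not stand for all transcripts of a gene. Of all annotated transcripts of 60 bases or more, 32.0% held either signal in their last 60 bases, as did 30.5% of long noncoding ones, so its absence is common. How well poly(A) selection captured each RNA in each group was not tested, and counts per gene cannot tell the NEAT1 transcripts apart.

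MALAT1 (ENSG00000251562; chromosome 11, 65497762 to 65506516, GRCh38, plus strand, lincRNA) was higher in every liver-derived library. Its level, scaled by the trimmed mean of M-values (TMM), was 107, 70.0 and 103 CPM in parental replicates 1 to 3. In liver-derived replicates 1 to 3 it was 166, 172 and 166 CPM. The groups did not overlap, the liver-derived libraries lay close together, and parental replicate 2 was the lowest. Group means of 93.3 ± 20.3 and 168 ± 3.78 CPM (± SD, n = 3) corresponded to a fitted log2 fold change of 0.85 (SE 0.14, adjusted p = 0.00155). MALAT1 passed under all 16 of 16 alternatives, with log2 fold changes from 0.68 to 0.95. The lowest came without parental replicate 2 (0.68, SE 0.03, adjusted p = 2.09e-21, against up to 0.00816 in the other alternatives), so the difference remained without the library that was low. Opposite-strand genes of the annotation cover part of its exon, ENSG00000279576 with 1589 bases and ENSG00000270117 with 396 bases, and both held 0 counts in every library. As the strand setting of the counting is not given, these 0 counts do not show how reads over the shared bases were assigned.

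NEAT1 (ENSG00000245532; chromosome 11, 65422774 to 65445540, plus strand, lincRNA) lies 52.2 kb from MALAT1 on the same strand and did not pass the test. It stood at 138, 139 and 135 CPM in parental cells and at 140.3, 144 and 138 CPM in liver-derived cells, and the groups overlapped. The log2 fold change was 0.03 (SE 0.06, adjusted p = 0.713), and its sign turned with library-size scaling (-0.02) and with a correction for GC content (-0.06), never passing the test. On the length-corrected TPM scale, the ratio of MALAT1 to NEAT1 was 2.01, 1.31 and 1.98 in the parental and 3.07, 3.10 and 3.12 in the liver-derived libraries. Every liver-derived ratio was above every parental one (means 1.77 ± 0.399 and 3.10 ± 0.0244, SD, n = 3 each, two-sided exact permutation p = 0.1, the smallest that 3 against 3 libraries allow).

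Genes for proteins that work with these nuclear RNAs were counted beside all tested genes, of which 17.5% rose and 21.3% fell. Of 15 paraspeckle protein genes 2 rose, 1 fell and 12 did not pass. HNRNPH3 (0.29) and CPSF7 (0.21), both RNA-binding or RNA-processing factors, rose and TAF15 (-0.35), an RNA-binding protein gene, fell on the log2 scale. MATR3, which did not pass, was read from ENSG00000280987 alone (2.88 CPM in parental and 2.99 CPM in liver-derived cells). Any other entry of that name was not counted. The core paraspeckle genes NONO (0.13), SFPQ (-0.15) and PSPC1 (-0.10), named for their role and not by the rule for named genes, did not pass. Of 16 nuclear speckle and SR splicing genes 4 rose and 1 fell. SON, a large speckle scaffold protein, rose from 282 ± 10.6 to 421 ± 12.7 CPM (SD, n = 3 each; log2 fold change 0.58, adjusted p = 1.13e-04). The splicing factors SRSF10 (0.46) and SRSF11 (0.28) rose too. The median log2 fold changes were -0.01 for the paraspeckle and 0.05 for the speckle list, beside -0.01 over all genes tested. These counts became 5 higher and 5 lower of 15, and 7 higher and 6 lower of 16, without parental replicate 2. Of all genes tested without it, 28.8% were higher and 31.0% lower.

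GAS5 (ENSG00000234741; chromosome 1, 173863900 to 173868882, minus strand), the host of snoRNAs that accumulates when cell growth stops, was the most abundant member per length. It stood at 187, 205 and 183 CPM in parental cells and at 225, 262 and 221 CPM in liver-derived cells. All liver-derived libraries were above all parental ones, by a small margin, and liver-derived replicate 2 was the highest. Group means of 192 ± 11.5 and 236 ± 22.5 CPM (± SD, n = 3) corresponded to a fitted log2 fold change of 0.30 (SE 0.09, adjusted p = 0.0231). The call was lost in 5 of 6 fits that left a library out (every one except that without liver-derived replicate 3; adjusted p from 0.0406 to 0.0933) and with a GC correction (0.19, adjusted p = 0.281), though not with that correction and the replicate numbers together (adjusted p = 7.38e-04). GAS5-AS1, on the opposite strand, shares 42 exonic bases with GAS5 and held 12 to 37 counts per library, few beside the 7312 to 11726 of GAS5.

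Other snoRNA host genes went both ways. Of 30 tested, GAS5 included, 8 rose, 4 fell and 18 did not pass, with a median log2 fold change of 0.06. Over all tested genes, 17.5% rose and 21.3% fell. SNHG1, with 45.0 ± 2.44 CPM in the parental and 246 ± 4.08 CPM in the liver-derived cells (n = 3 each), rose by 2.45 on the log2 scale (SE 0.07, adjusted p = 4.62e-08), the largest change in that list. TAF1D, a subunit of an RNA polymerase I factor, rose (0.57), and SNHG8 fell (-0.63). The counts were 12 and 8 without parental replicate 2, where 28.8% of all genes tested rose and 31.0% fell.

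H19 (ENSG00000130600; chromosome 11, 1995163 to 2001470, minus strand) was lower in every liver-derived library. It was covered by 110, 155 and 119 counts in the parental and 38, 21 and 33 counts in the liver-derived libraries, or 2.27, 3.42 and 2.26 CPM against 0.728, 0.752 and 0.680 CPM. The groups were far apart, and parental replicate 2 was the highest. Group means of 2.65 ± 0.667 and 0.720 ± 0.0366 CPM (± SD, n = 3) corresponded to a fitted log2 fold change of -1.88 (SE 0.22, adjusted p = 1.56e-04). H19 passed under all 16 alternatives, from -1.98 to -1.64 (adjusted p from 4.24e-17 to 0.00156). It stood at -1.66 without parental replicate 2 (adjusted p = 1.67e-08). In the alternative that kept genes with 1 CPM in 3 libraries, H19 entered only through the parental libraries, where it was high.

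An exon of H19 holds the precursor of miR-675, a microRNA through which H19 is known to act. The mature arms are printed from RefSeq (GRCh38.p14) with the seed, bases 2 to 8, in capitals; the seeds differ. The libraries do not measure mature microRNAs, so no level is given for them.
hsa-miR-675-5p (chr11:1996800-1996822, minus strand): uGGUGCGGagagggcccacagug
hsa-miR-675-3p (chr11:1996768-1996787, minus strand): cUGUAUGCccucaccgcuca

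The genes beside H19 went both ways: of 6 tested neighbours 2 rose, 1 fell and 3 did not pass. MRPL23, a mitochondrial ribosomal protein gene 10.6 kb away, was at 18.8 and 16.5 CPM (-0.18, adjusted p = 0.237). IGF2, the growth factor gene that shares its imprinting control region with H19, was low in both groups, at 0.397 ± 0.0667 and 0.670 ± 0.135 CPM (SD, n = 3 each). Its log2 fold change was 0.77 (SE 0.27, adjusted p = 0.0462), opposite in sign to that of H19. That call was lost in 10 of 15 alternatives (adjusted p up to 0.195), 5 of them fits without 1 library (each except parental replicate 2). ASCL2, a transcription factor of intestinal stem cells 267 kb away, was chosen after its values were seen. It held 114, 137 and 129 counts in the parental and 6, 4 and 8 in the liver-derived libraries, a log2 fold change of -4.19 (SE 0.24, adjusted p = 1.79e-06).

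MEG3 (ENSG00000214548; chromosome 14, 100779410 to 100861031, plus strand) is the other imprinted lncRNA and a reported growth suppressor. It held 24, 12 and 21 counts in the parental and 27, 23 and 22 in the liver-derived libraries, or 0.386 ± 0.115 and 0.598 ± 0.198 CPM (SD, n = 3 each). The groups overlapped, and the log2 fold change of 0.57 (SE 0.34, adjusted p = 0.218) did not pass in any alternative. Its partners of the same locus, DLK1, RTL1, MEG8 and MEG9, had too few reads to be tested.

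A list of imprinted genes, which holds IGF2 and others of chromosome 11 beside loci elsewhere, went both ways. Of 14 tested from a list of 20, 9 fell, 3 rose (IGF2 among them) and 2 did not pass, where 21.3% of all tested genes fell and 17.5% rose, with a median log2 fold change of -0.56 beside -0.01 over all genes. NDN fell from 10.2 ± 0.327 to 1.16 ± 0.103 CPM (-3.13), its neighbour MAGEL2 from 1.09 ± 0.373 to 0.106 ± 0.0638 CPM (-3.49), and PEG10, a retrotransposon-derived gene, from 1132 ± 49.9 to 451 ± 0.905 CPM (-1.33). On chromosome 11, KCNQ1OT1 (-0.998), itself an imprinted lncRNA, CDKN1C (-0.62), a cell-cycle inhibitor, and PHLDA2 (-0.50) also fell; the last 2 were named after their values were seen. Leaving out parental replicate 2 gave 9 lower and 4 higher of 15 tested, with 31.0% of all genes lower and 28.8% higher.

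PCA3 (ENSG00000225937; chromosome 9, 76764436 to 76787569, plus strand, antisense) was low in both groups and fell. It held 56, 49 and 59 counts in the parental and 14, 10 and 16 in the liver-derived libraries, or 1.15, 1.08 and 1.12 CPM against 0.268, 0.358 and 0.330 CPM. The libraries of each group lay close together and the groups did not overlap. Group means of 1.12 ± 0.0366 and 0.319 ± 0.0460 CPM (± SD, n = 3) corresponded to a fitted log2 fold change of -1.83 (SE 0.22, adjusted p = 1.78e-04). It passed under all 16 alternatives, from -1.92 to -1.70. In the alternative that kept genes with 1 CPM in 3 libraries, PCA3 entered only through the parental libraries, where it was high.

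PCA3 lies inside PRUNE2 on the other strand, and the annotated exons of these genes share 0 bases. PRUNE2, for which a tumour-suppressor role in prostate cancer has been reported, fell from 183 ± 14.4 to 41.8 ± 2.01 CPM (n = 3, ± SD; fitted log2 fold change -2.13, SE 0.08, adjusted p = 2.29e-07). Its counts per library ran from 7527 to 10002 (parental) and from 1226 to 2177 (liver-derived), and both RNAs of this locus were lower. The strand setting of the counting is not given in the sources used here, so reads of unspliced PRUNE2 RNA over PCA3 exons cannot be told apart from PCA3 reads. Of 6 tested neighbours 4 fell and none rose, where 21.3% of all tested genes fell; without parental replicate 2 the counts were the same. Besides PRUNE2 these were GCNT1 (-1.67), a glycosyltransferase gene 257 kb away, VPS13A (-0.93) and GNA14 (-1.85), named after their values were seen. FOXB2, the nearest on the other side at 232 kb, did not pass (-0.32, adjusted p = 0.163).

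HOTAIR (ENSG00000228630; chromosome 12, 53962308 to 53974956, minus strand, antisense) was also lower. It held 84, 71 and 77 counts in the parental and 35, 27 and 42 in the liver-derived libraries, or 1.73, 1.57 and 1.46 CPM against 0.670, 0.966 and 0.865 CPM. Every liver-derived library was below every parental one. Group means of 1.59 ± 0.136 and 0.834 ± 0.151 CPM (± SD, n = 3) corresponded to a fitted log2 fold change of -0.95 (SE 0.19, adjusted p = 0.00396). It passed under all 16 alternatives, from -1.03 to -0.80. In the alternative that kept genes with 1 CPM in 3 libraries, HOTAIR entered only through the parental libraries, where it was high.

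The HOXC genes around HOTAIR code for transcription factors of body patterning. Of 8 tested, 6 fell, none rose and 2 did not pass, with a median log2 fold change of -0.43, where 21.3% of all tested genes fell and 17.5% rose. HOXC12, 3.35 kb from HOTAIR, fell from 25.2 ± 3.37 to 5.13 ± 1.06 CPM (SD, n = 3 each; -2.30, adjusted p = 7.24e-06). HOXC11, whose gene body overlaps HOTAIR on the other strand with 0 shared exonic bases, fell from 3.10 ± 0.532 to 1.78 ± 0.163 CPM (-0.79, adjusted p = 0.00419). Its counts ran from 123 to 180 (parental) and from 45 to 94 (liver-derived). The strand setting of the counting is not given, so HOTAIR reads and any reads of unspliced HOXC11 RNA over HOTAIR exons cannot be told apart. HOXC4 fell by 0.72 on the log2 scale, and HOXC8 (0.47, adjusted p = 0.0631) and HOXC9 (-0.28, adjusted p = 0.0731) did not pass. With parental replicate 2 left out, 8 of 9 HOXC genes fell and 1 rose, where 31.0% of all genes tested without it fell and 28.8% rose. Of the 6 tested neighbours of HOTAIR, 4 fell and 1 rose with and without that library.

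Genes of the chromatin complexes that HOTAIR is known to bind went both ways, where 17.5% of all tested genes rose and 21.3% fell. Of 15 genes of PRC2 and the REST, CoREST and LSD1 machinery 4 rose, 1 fell and 10 did not pass, with a median log2 fold change of 0.06. PHF19, which helps PRC2 bind chromatin, fell from 19.6 ± 2.85 to 7.94 ± 0.555 CPM (SD, n = 3 each; -1.30, adjusted p = 3.89e-05). EZH1, a catalytic subunit, rose (0.50), as did the deacetylase gene HDAC1 (0.27). Without parental replicate 2, 6 rose and 6 fell, where 28.8% of all genes tested rose and 31.0% fell.

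**Figure D1:**
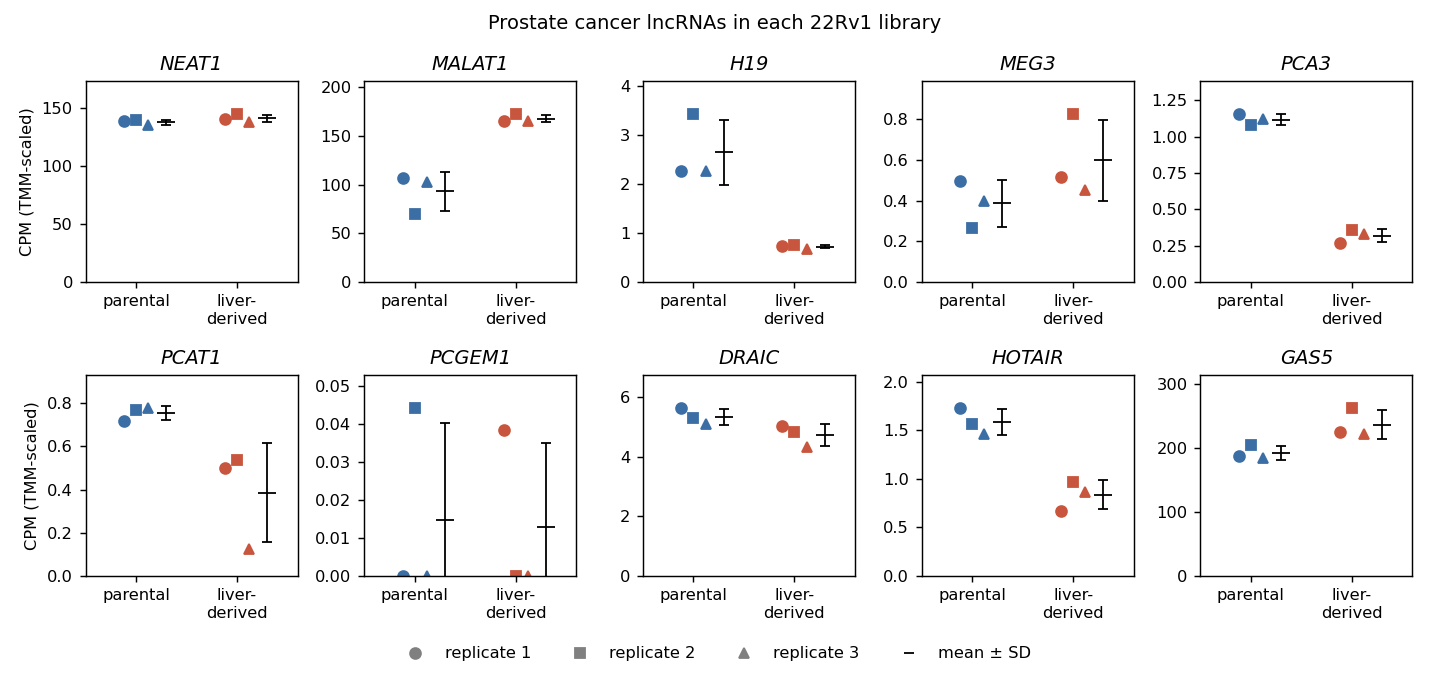
Level of each lncRNA in CPM (TMM-scaled, linear axes from 0) in 3 parental and 3 liver-derived libraries; symbols mark replicates, and black bars the mean ± SD. MALAT1 and GAS5 lie higher and H19, PCA3, HOTAIR, PCAT1 and DRAIC lower in all 3 liver-derived libraries than in any parental one, and liver-derived replicate 3 stands apart for PCAT1.

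PCAT1 (ENSG00000253438; chromosome 8, 126847055 to 127021014, plus strand, antisense) had lower values in the liver-derived libraries without passing the test. It held 35, 35 and 41 counts in the parental and 26, 15 and 6 in the liver-derived libraries, or 0.721, 0.771 and 0.777 CPM against 0.498, 0.537 and 0.124 CPM. The groups did not overlap, and liver-derived replicate 3 was far below the other 2. The log2 fold change was -1.02 (SE 0.42, adjusted p = 0.0821). Without liver-derived replicate 3 it was -0.55 (adjusted p = 0.151), and without parental replicate 2 it passed (-1.01, adjusted p = 0.0268); over 15 alternatives the adjusted p ran from 0.00799 to 0.151, and 4 passed. PRNCR1, a lncRNA of the same region 58.9 kb away, was at 0.256 and 0.243 CPM and did not pass (-0.10, adjusted p = 0.854).

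DRAIC (ENSG00000245750; chromosome 15, 69463026 to 69571440, plus strand, lincRNA) did not pass the test. It stood at 5.62, 5.29 and 5.08 CPM in parental cells and 5.02, 4.83 and 4.33 CPM in liver-derived cells. The groups did not overlap but lay next to each other, with a log2 fold change of -0.17 (SE 0.10, adjusted p = 0.221). With a GC correction DRAIC passed narrowly, both alone (-0.24, adjusted p = 0.0472) and together with the replicate numbers (-0.25, adjusted p = 0.0484). It passed in no other alternative (adjusted p up to 0.554). ENSG00000259457, on the opposite strand, shares 159 exonic bases with DRAIC and held 5 to 16 counts per library. The nearest tested gene, RPLP1, a ribosomal protein gene 6.83 kb away, did not pass (0.17, adjusted p = 0.266).

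PCGEM1 (ENSG00000227418; chromosome 2, 192749845 to 192776899, plus strand, lincRNA) was at the limit of detection. It held 2 counts in parental replicate 2, 2 in liver-derived replicate 1 and 0 in the other 4 libraries. In those 4, a count of 0 allows a level of up to 0.0589 to 0.106 CPM (3 counts of a library's total, counting error only), so no fold is given. The nearest tested gene, TMEFF2, a transmembrane protein gene of prostate and brain 554 kb away, was at 142 and 15.0 CPM (-3.25, SE 0.08, adjusted p = 3.49e-08).

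**Figure D2:**
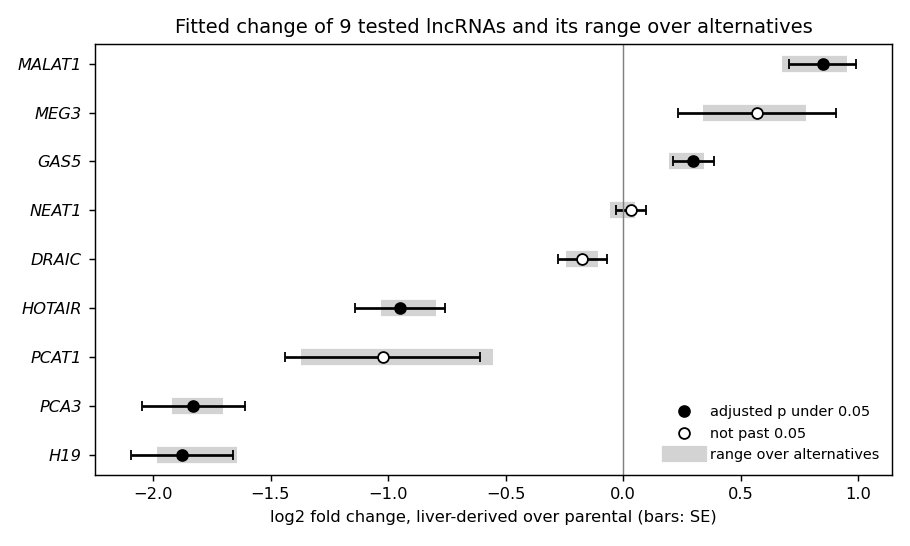
Fitted log2 fold change, liver-derived over parental, of the 9 tested lncRNAs (points; black bars, SE; filled, adjusted p under 0.05), with the range over the alternative fits in grey. The range of NEAT1 spans 0, and those of the other 8 stay on one side of it.

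Compared per length, the members covered a wide range of levels. In the parental libraries the order of mean TPM was GAS5 (190.4 ± 3.12), MALAT1 (38.7 ± 9.78), NEAT1 (21.8 ± 0.705), DRAIC (6.83 ± 0.465), H19 (3.36 ± 0.688), HOTAIR (2.20 ± 0.216), PCAT1 (1.18 ± 0.0594), PCA3 (1.03 ± 0.0738), MEG3 (0.0890 ± 0.0293) and PCGEM1 (0.0295 ± 0.0511; SD, n = 3 each). Only MEG3 and PCGEM1 overlapped as neighbours in that order. In the liver-derived libraries the order was the same except that HOTAIR (1.13 ± 0.203 TPM) stood above H19 (0.895 ± 0.0489 TPM), and these overlapped. PCAT1 (0.587 ± 0.348 TPM) and PCA3 (0.285 ± 0.0410 TPM) overlapped there too.

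**Figure D3:**
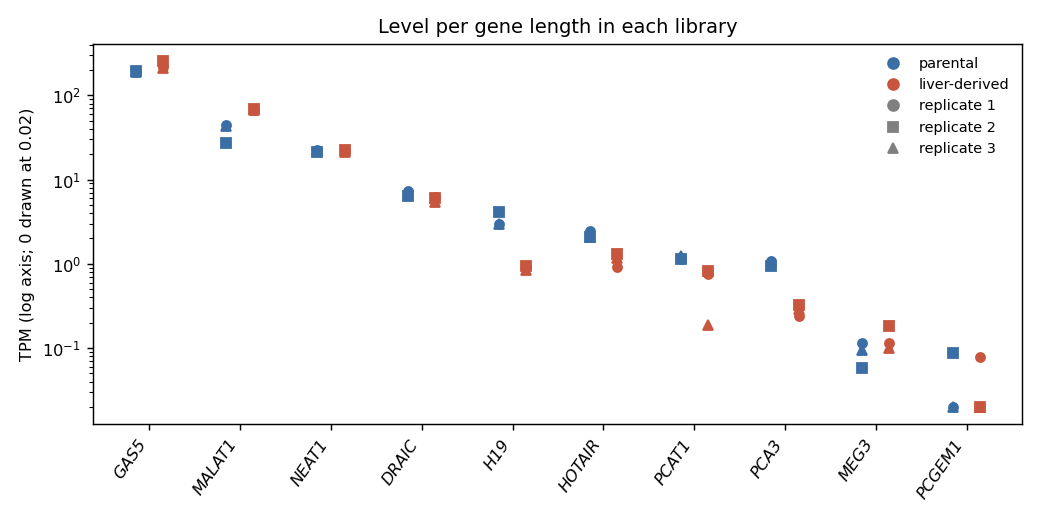
TPM of each lncRNA (log axis) in the parental (blue) and liver-derived (red) libraries, ordered by the parental mean; symbols mark replicates. GAS5, MALAT1 and NEAT1 are the top 3 in both groups, and in the liver-derived cells the mean of H19 is below that of HOTAIR, with overlapping ranges.

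The 10 lncRNAs summed to 273, 257 and 268 TPM in the parental and 315, 355 and 308 TPM in the liver-derived libraries. The groups did not overlap (two-sided exact permutation p = 0.1, the smallest possible here). GAS5 made up 69.0 to 75.4% of the sum in every library. MALAT1 took 10.7 to 16.5% of it in parental cells and 19.5 to 21.5% in liver-derived cells, while the 7 members other than GAS5, MALAT1 and NEAT1 took 5.29 to 5.79% and 2.58 to 2.94%. In a limma test on log2(TPM + 1), which understates the change of low genes, MALAT1 (0.82) and GAS5 (0.26) passed. Of 17453 genes tested, 37.5% passed. The GAS5 call (adjusted p = 0.0326) was lost with no low-value filter (0.0658). It was also lost without parental replicate 1 or 3, or liver-derived replicate 1 or 2 (adjusted p from 0.062 to 0.0886). NEAT1 (-0.006, adjusted p = 0.945) and DRAIC (-0.19, adjusted p = 0.151) did not pass. All of these members were above the filter of 1 TPM in every library. H19 (-1.19) and PCAT1 (-0.48) reached that filter only in the parental libraries, where they were high. HOTAIR (-0.59) reached it in all parental libraries and in liver-derived replicates 2 and 3 (1.31 and 1.16 TPM), but not in replicate 1 (0.907 TPM). The differences of H19, PCAT1 and HOTAIR in TPM are a description only.

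The called neighbours were counted at each locus. Over all tested genes, 38.8% were called. Among 6 tested neighbours each, 4 fell around PCA3, and 4 fell and 1 rose around HOTAIR. Around MALAT1 1 fell and none rose, around GAS5 1 fell (ZBTB37, whose gene body overlaps GAS5 on the other strand, -0.45), and around NEAT1 1 rose (MALAT1) and 1 fell. Around MEG3 1 rose, around PCAT1 2 fell, around PCGEM1 1 rose and 2 fell, and around DRAIC 1 rose and 1 fell. Without parental replicate 2, when 59.8% of all genes were called, the counts grew at 7 loci other than H19, PCA3 and HOTAIR: 1 rose and 4 fell around GAS5, 2 and 1 around MALAT1, 3 and 2 around NEAT1, 1 and 1 around MEG3, 1 and 2 around PCAT1, 1 and 3 around PCGEM1, and 3 and 2 around DRAIC. These genes share their chromosomal position with the member and are not independent of each other, and no difference between loci was tested.

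**Figure D4:**
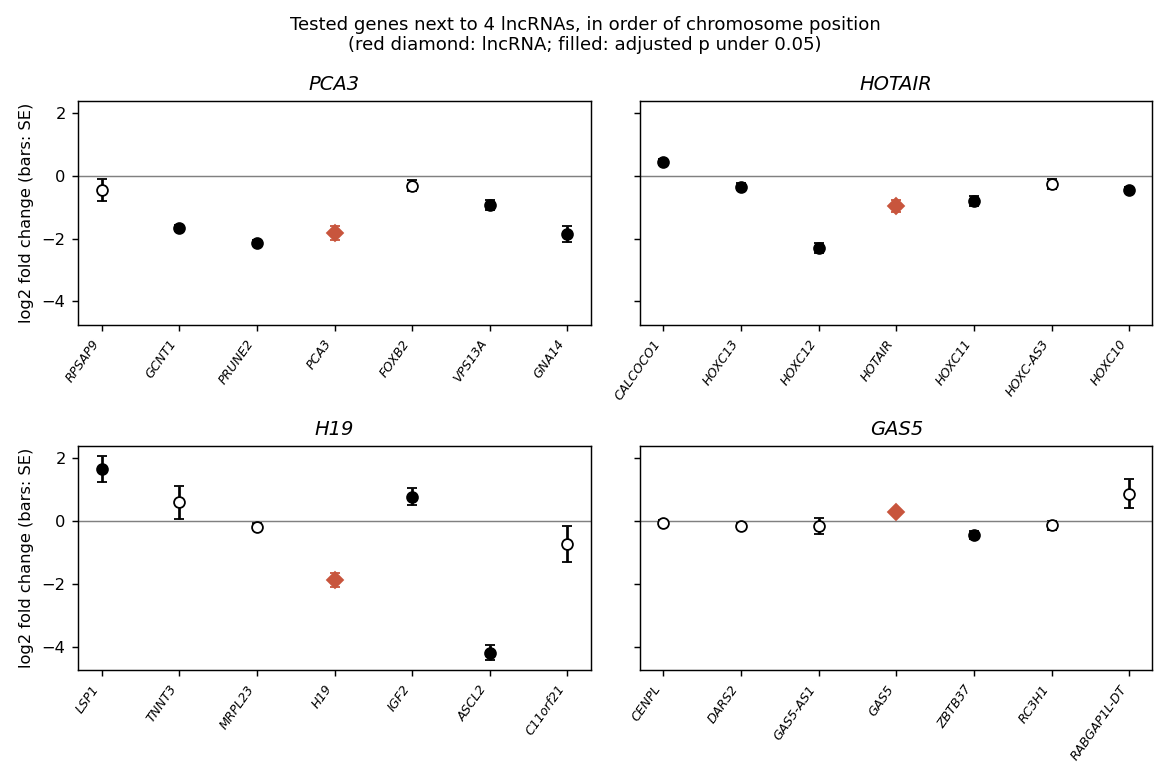
Log2 fold change (bars, SE) of 4 lncRNAs (red diamonds) and of the 3 nearest tested genes on either side, in order of chromosome position; filled symbols have an adjusted p under 0.05. PCA3 has 4 lower neighbours, HOTAIR 4 lower and 1 higher, H19 1 lower and 2 higher, and GAS5 1 lower.

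The promoters of the members with the largest falls are shown because H19 and PCA3 changed by similar amounts. Each window runs from 250 bases before to 50 after the RefSeq start (GRCh38.p14), and capitals mark matches on either strand. The letters searched were ACGTG, a core of the hypoxia response element, AGAACA, part of an androgen receptor site, and TGTTTAC, bound by forkhead factors such as FOXA1. Also searched were the site of the GATA family, spelled AGATAA, and the core promoter element known as the TATA box, spelled TATAAA.
PCA3 promoter (chr9:76764186-76764485, plus strand): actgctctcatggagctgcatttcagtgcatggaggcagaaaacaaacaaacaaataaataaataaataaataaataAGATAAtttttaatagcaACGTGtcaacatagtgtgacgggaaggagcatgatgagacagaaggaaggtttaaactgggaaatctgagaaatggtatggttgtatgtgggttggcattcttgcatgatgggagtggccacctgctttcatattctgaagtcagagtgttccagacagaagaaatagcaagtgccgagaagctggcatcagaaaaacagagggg
H19 promoter (chr11:2001217-2001516, minus strand): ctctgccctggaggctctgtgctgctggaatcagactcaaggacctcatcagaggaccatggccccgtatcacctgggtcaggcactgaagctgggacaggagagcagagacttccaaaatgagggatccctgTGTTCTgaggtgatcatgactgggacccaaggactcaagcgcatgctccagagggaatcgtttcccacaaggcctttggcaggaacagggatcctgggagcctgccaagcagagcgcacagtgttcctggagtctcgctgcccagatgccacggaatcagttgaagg

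The PCA3 window held the GATA and the hypoxia letters once each, and the H19 window held the androgen receptor letters once, read on the other strand as TGTTCT. Of 35116 RefSeq windows of the same length, 21.4% held the hypoxia, 14.8% the androgen receptor, 3.42% the forkhead, 10.3% the GATA and 11.5% the TATA box letters. The matches of PCA3 and H19 were thus different, and each is found in many promoters. The RefSeq start of H19 lies 204 bases inside the end of the gene given in the deposited tables, and that of PCA3 is the same. The first MALAT1 window, at 73.7% GC, held none of these letters, and a second one, at 46.0% GC, held the androgen receptor and TATA box letters once each, against 40.7% GC for PCA3 and 57.7% for H19. Windows were used for 7 of 10 members. NEAT1 and HOTAIR had none in the table used, and chromosome 8, which holds PCAT1, was left out of this search.

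For each called member with at least 1 CPM in its higher group, the genes with the most similar profile were found by the root mean square difference of mean-centred log2 CPM over the 6 libraries. MALAT1 was nearest to ATP5PO (0.04), a subunit gene of the mitochondrial ATP synthase, and JMJD1C (0.04), a chromatin factor gene. H19 was nearest to RAMP2-AS1 (0.06) and ADGRB2 (0.08), PCA3 to CDH7 (0.06) and LINC02084 (0.07), HOTAIR to WASIR2 (0.04) and DRAXIN (0.06), and GAS5 to COL27A1 (0.04) and the ribosomal protein gene RPL39 (0.05). ATP5PO, for example, stood at 61.5, 42.9 and 58.7 CPM in the parental and 96.1, 100.2 and 99.7 CPM in the liver-derived libraries, low in parental replicate 2 as MALAT1 was. All of these profiles share the same 6 libraries and were picked as the nearest of 19255 genes, so the likeness is a description only.

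Further lncRNAs known from prostate or other cancers also went both ways. Of 24 tested from a list of 39 (35 in the tables), 4 rose, 7 fell and 13 did not pass, with a median log2 fold change of 0.06. The shares were 17.5% upward and 21.3% downward over all tested genes, and 15.0% and 16.9% over those with a long noncoding biotype. PCAT14, a prostate-specific RNA, fell from 12.6 ± 1.23 to 2.23 ± 0.462 CPM (SD, n = 3 each; -2.53, adjusted p = 2.56e-06). MIR22HG, the host of miR-22, rose from 5.91 ± 0.186 to 12.2 ± 0.514 CPM (1.04, adjusted p = 1.57e-05). The imprinted KCNQ1OT1, also counted above, fell from 2.36 ± 0.154 to 1.19 ± 0.0715 CPM (-0.998, adjusted p = 5.31e-04). Without parental replicate 2, 6 rose and 7 fell of 25 tested, where 28.8% of all genes tested rose and 31.0% fell. In these bulk libraries, fewer cells making an RNA and less RNA per cell cannot be told apart.

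**Figure D5:**
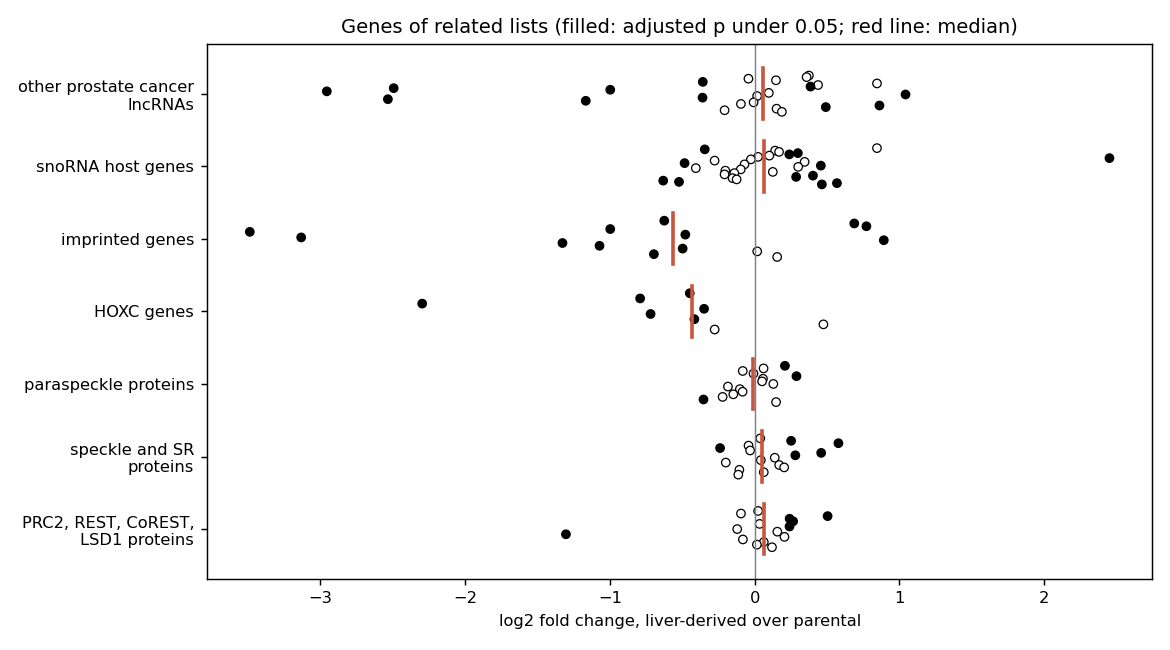
Log2 fold change, liver-derived over parental, of the tested genes of 7 related lists (filled, adjusted p under 0.05; red line, median of the list). The medians of the imprinted (-0.56) and HOXC (-0.43) lists lie below 0, and those of the other 5 lists lie between -0.01 and 0.06.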

How the data were processed

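PolyA-selected TruSeq libraries of 22Rv1 cells were read from both ends with a NovaSeq, as the labels' protocols state. The submitters' processing notes name Trimmomatic 0.36, STAR 2.5.2b, featureCounts, Subread 1.5.2 and GRCh38; parameters, annotation release and strand setting: not given in the sources used here. Unnormalised read counts by gene, one file a library, and a table of TPM were deposited by the authors; these TPM equalled the counts over gene length, rescaled to a common sum, within a relative difference of 4.82e-05. Rows of that table without a gene (391182) were left out, and in 1 column these rows held spreadsheet errors.

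Counts were fitted with edgeR 4.0.16 (R 4.3.3; filterByExpr, TMM, quasi-likelihood, group as the only term), with Benjamini-Hochberg adjustment over 19255 genes and a threshold of 0.05. The common biological coefficient of variation was 9.57%. TPM was tested with limma 3.58.1 on log2(TPM + 1), keeping genes that reached a TPM of 1 in at least 3 libraries. Totals of 28395265 to 53275252 counts make levels under 1 CPM rest on few reads.

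Alternatives were other scaling factors, other filters, DESeq2 1.42.0, limma-voom, leaving out each library, a replicate block, and a GC correction per library with and without that block; for TPM, a pseudocount of 0.1 and no filter. Counts for lists and neighbours without parental replicate 2 were added after seeing the data. The members and the gene lists were chosen with earlier results of these data known. Named genes were all members, per list up to 3 called genes of largest change that reached 1 CPM in the higher group, the nearest tested gene on either side, and the 2 most similar profiles; exceptions are stated, and some items are not reported here. Both fits were tested on simulated data. Sequences came from GENCODE 29 transcripts and RefSeq tables.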

Additional observations from a re-analysis of the deposited data

How the results depend on the processing

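MALAT1, H19, PCA3 and HOTAIR kept their direction and their call under all 16 alternatives to the count test. Among these, the filter of 1 CPM in 3 libraries kept H19, PCA3 and HOTAIR only through the parental libraries, where they were high. The number of members called was 5 under most settings and 4 to 7 over all; 6 were called with no low-count filter and 7 with the GC correction and replicate block together. Members higher fell from 2 to 1 with the GC correction (GAS5 lost) and ranged from 1 to 2 with a library left out; members lower rose from 3 to 5 with the GC correction, with or without the block (PCAT1 and DRAIC gained), and ranged from 3 to 4 with a library left out. The cause was not tested. Over all genes, 7476 were called, 5600 to 11870 with a library left out; of the 11870 without parental replicate 2, 7334 were among the 7476. Genes higher (3375) numbered 5153 with the GC correction and 2432 to 5714 with a library left out, and genes lower (4101) 3168 to 6156. Library size alone gave 2865 higher and 4745 lower. Under the scaling alternatives the median log2 fold change over all genes ran from -0.0598 to 0.00302.

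Deviations of same-numbered libraries from their group means correlated at -0.00842, 0.00925 and 0.0722. Those of differently numbered libraries ran from -0.0398 to 0.0304. With 3 libraries a group, and parental replicate 2 standing apart, these values cannot decide whether the replicate numbers pair the samples weakly. With the replicate block 7052 genes were called, 2 members higher and 3 lower, and the TPM test called 5334 genes against 6541. The sign of NEAT1 turned with library size alone (-0.0185) and with the GC correction alone (-0.0567) or with the block (-0.0538); on the log2(TPM + 1) scale it was -0.00622, and -0.0315 to 0.0114 with a library left out. Signs near 0 also turned, with no call in the opposite direction, for neighbours: FOXB2 (0.0136, GC correction), FAUP4 (-0.141 to 0.00498), PRNCR1 (-0.293 to 0.0462) and ENSG00000254286 (-0.0843 to 0.662) with a library left out. MEG3 (12 to 27 counts per library), PCAT1 (6 to 41) and PCGEM1 (0 to 2) rest on few reads; the part of depth in their calls was not tested.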
